A study of Mus musculus with 85 samples.

Results

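Matrix metalloproteinases (MMPs) cut the proteins of the extracellular matrix, and tissue inhibitors of metalloproteinases (TIMPs) block them. Transcripts of 7 MMPs (Mmp2, Mmp8, Mmp9, Mmp12, Mmp13, Mmp14 and Mmp19) and 3 TIMPs (Timp1, Timp2 and Timp3) were followed in poly(A) RNA-seq of mouse liver cells and of bone marrow-derived macrophages (BMDMs). The 10 genes were taken by symbol from the 23608 genes of the deposited tables, and all 10 were found. The 85 libraries made up 30 groups of 2 to 5 libraries. All mice were males, given in the study's methods as 8 to 12 weeks old, without saying whether this was the age before or after the 30 weeks of diet. The study counts its LPS-treated and BMDM groups in mice. For the other groups, no source used here says for each whether its libraries came from separate animals, and p-values there measure only the spread between libraries.

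Untreated liver cells came from mice of 3 inbred strains (A/J, BALB/cJ, C57BL/6J). Kupffer cells, macrophages that live in the sinusoids, were sorted as CD45+ F4/80 high cells without CD146, with 2 libraries per strain. Liver sinusoidal endothelial cells (LSECs, CD146+ without CD45) had 4 libraries per strain, stellate cells (sorted on vitamin A autofluorescence) had 4, 4 and 3, and purified hepatocytes had 2, 2 and 3. CB6F1/J hybrids, the offspring of BALB/cJ females and C57BL/6J males, gave 4 libraries of untreated Kupffer cells. Lipopolysaccharide (LPS) Kupffer cells were taken 2 h after an intraperitoneal dose of 0.1 mg/kg. There were 2 libraries from BALB/cJ, 2 from C57BL/6J and 5 from the hybrid. In the study's methods these mice and their uninjected controls were fasted overnight. The controls used here were the untreated Kupffer libraries above, whose labels do not mention fasting, so it is not known whether they were fasted. The same libraries served in the strain, cell type and AMLN comparisons. BMDMs of the 3 strains and the hybrid were grown in M-CSF and given phosphate-buffered saline (PBS) or 100 ng/ml Kdo2-lipid A (KLA), a purified endotoxin, for 2 h, with 2 libraries per group. Kupffer cells of mice kept for 30 weeks on the AMLN diet, a high-fat, high-fructose, high-cholesterol diet used to model fatty liver disease, gave 4 libraries for A/J, 4 for C57BL/6J and 3 for BALB/cJ. The C57BL/6 mice on this diet were bred in the laboratory and not bought with the others. The AMLN libraries were set against the untreated Kupffer libraries of the same strain, whose labels give no diet or age. Diet, age, batch, any fasting and, for C57BL/6, the source of the mice cannot be told apart in that comparison. A figure legend of the study counts 2 control-diet Kupffer samples per group, which may be these. It counts 2 AMLN samples for BALB/cJ, where 3 were used here. In the transplant experiment, immunodeficient NSG mice were treated with busulfan and given lineage-negative marrow from CB6F1/J, C57BL/6J or BALB/cJ donors, and graft-derived Kupffer cells were sorted months later, with 3 libraries per donor. The hybrid graft libraries carry NSG in their names but the treatment label of untreated mice, and in part they looked like neither parental graft group. The sum of 4 lymphocyte markers was 8.69 to 14.2 TPM (a transcript level corrected for gene length and library size) in them, against 61.0 to 351 TPM in the parental graft libraries, and Adam8 was at 0.394 to 0.596 TPM against 4.74 to 25.9 TPM. They were left out of every comparison between groups, only their allele shares were tested, and their values stand as labelled.

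MMPs are zinc-dependent enzymes that are secreted as inactive precursors or anchored in the membrane, and they are switched on by cleavage. Mmp2 and Mmp9 are gelatinases, Mmp8 and Mmp13 are collagenases, Mmp12 is the macrophage elastase, and Mmp14 is a membrane-bound protease that activates pro-Mmp2 with the help of Timp2. Mmp19 is a secreted protease of basement membrane proteins. TIMPs bind the active site, and Timp3 stays bound to matrix and also inhibits ADAM17, the enzyme that sheds TNF. In the liver, scar collagen is laid down mainly by stellate cells, and macrophages are known as a source of enzymes that break it down.

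Promoter sequences are shown for 3 members that rose after LPS in Kupffer cells, as described below, since they differ in the motifs of the AP-1 and RUNX factors. The RefSeq table (GRCm38.p6) held start sites for 7 of the 10 members, and Mmp2, Mmp9 and Mmp19 had no entry. Windows of 250 bases before and 50 bases after each start were searched on both strands for TGANTCA (AP-1), AACCACA (RUNX) and the NF-kB consensus, which occurred in 7.81%, 5.27% and 4.51% of all 32851 such windows. Each stretch below is the 140 bases just upstream of a start, on the plus strand, with motif matches in capitals.
Mmp13, chr9:7272374-7272513: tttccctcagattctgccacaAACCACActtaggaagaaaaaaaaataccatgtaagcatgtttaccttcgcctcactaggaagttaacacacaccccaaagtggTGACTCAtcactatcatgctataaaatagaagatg
Mmp12, second start, chr9:7347234-7347373: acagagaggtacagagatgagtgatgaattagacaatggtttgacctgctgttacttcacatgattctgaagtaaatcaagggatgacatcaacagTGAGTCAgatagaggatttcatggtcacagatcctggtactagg
Mmp14, chr14:54431458-54431597: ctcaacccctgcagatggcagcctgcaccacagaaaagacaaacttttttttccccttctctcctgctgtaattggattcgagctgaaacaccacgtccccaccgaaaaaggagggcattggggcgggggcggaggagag
The Mmp13 promoter held an AP-1 match 35 bases and a RUNX match 119 bases upstream of its start. The second Mmp12 start had an AP-1 match 44 bases upstream, and the first had none. No match was found in the windows of Mmp8, Mmp14, Timp1, Timp2 or Timp3, and no window of a member held the NF-kB consensus.

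Of the genes named here, Mmp12 (chromosome 9, 7344397 to 7360461), Mmp13 (chromosome 9, 7272514 to 7283333) and Mmp8 (chromosome 9, 7558429 to 7568486) lie in a cluster on mouse chromosome 9 in GRCm38.p6. Mmp14 lies on chromosome 14 (54431598 to 54442456), Mmp9 on chromosome 2 (164940326 to 164955850), Timp2 on chromosome 11 (118301061 to 118355411) and Timp3 on chromosome 10 (86300412 to 86349505). Mmp2 lies on chromosome 8 (92827290 to 92853421), Mmp19 on chromosome 10 (128790910 to 128800827) and Timp1 on chromosome X (20870166 to 20874737). Reads were assigned over exons, and the strand setting of the counting was not given in the sources used here. On the opposite strand, Mmp12 overlaps Mmp1b, Timp1 overlaps Syn1, Timp3 overlaps Syn3, and Mmp19 overlaps Tmem198b and the antisense gene Gm47093. Timp2 overlaps Cep295nl on the same strand. The counts of these members are uncertain to that extent.

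Libraries of the inbred strains held 5254797 to 42779191 counted reads, and hybrid libraries 55371911 to 158372027. Summed levels of 6 Kupffer cell markers were 12990 to 15520 TPM in untreated Kupffer libraries of the 4 strains. The stellate libraries also held LSEC markers, summed to 1443 to 4105 TPM against 7571 to 10170 TPM in LSECs, and Kupffer cell markers that were higher in the 4 A/J stellate libraries (1971 to 6020 TPM) than in the 4 of BALB/cJ (165 to 699 TPM). These values bear on every member that those cells express, and their part in the results was not tested. Nnt, a gene known to be deleted in part in C57BL/6J, was at 13.7 and 15.0 TPM in hepatocyte libraries 1 and 2 labelled C57BL/6J but at 38.5 TPM in library 3, beside 36.1 to 46.5 TPM in hepatocytes of the other strains, so library 3 went against its label. Results on hepatocytes are given with it, and the only member call that changed without it is named beside its value. In C57BL/6J Kupffer libraries Nnt was at 17.0 to 21.7 TPM with the AMLN diet and at 10.0 and 13.6 TPM untreated. In AMLN-fed A/J it was at 14.2 to 28.8 TPM, and what lies behind these levels was not tested.

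In untreated cells most members were high in some cell types and low in others. Mmp12 and Mmp13 were highest in the macrophages, Mmp8 in BMDMs, and Mmp9 in BMDMs and in C57BL/6J Kupffer cells. Mmp2 was highest in stellate cells, and Mmp14 and Timp3 in the endothelium and stellate cells. Timp2 was lowest in hepatocytes and, among the other cells, in LSECs of C57BL/6J. Of the 10 members, 9 passed 8 TPM in some untreated group and were tested in at least 1 pair of cell types. Each test compared the means over the 3 strains, which counted equally. A member that passes only through the cell type where it is high has to differ, so these calls describe where each gene is found. A difference was called at an adjusted p under 0.05 with more than a 2-fold change, and many genes passed in each pair. Kupffer cells differed from LSECs in 7 of 7 members tested (38.5% of all genes tested), from stellate cells in 7 of 8 (37.1%), from hepatocytes in 5 of 6 (60.5%) and from BMDMs in 4 of 7 (31.6%). LSECs differed from stellate cells in 3 of 5 (20.7%), from hepatocytes in 4 of 4 (61.5%) and from BMDMs in 6 of 7 (48.2%). Stellate cells differed from hepatocytes in 5 of 5 (62.2%) and from BMDMs in 7 of 8 (47.4%), and hepatocytes from BMDMs in 5 of 6 (59.0%). Each library is pooled RNA from many cells, so a lower level can mean fewer cells of a type or less RNA per cell.

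**Figure D1:**
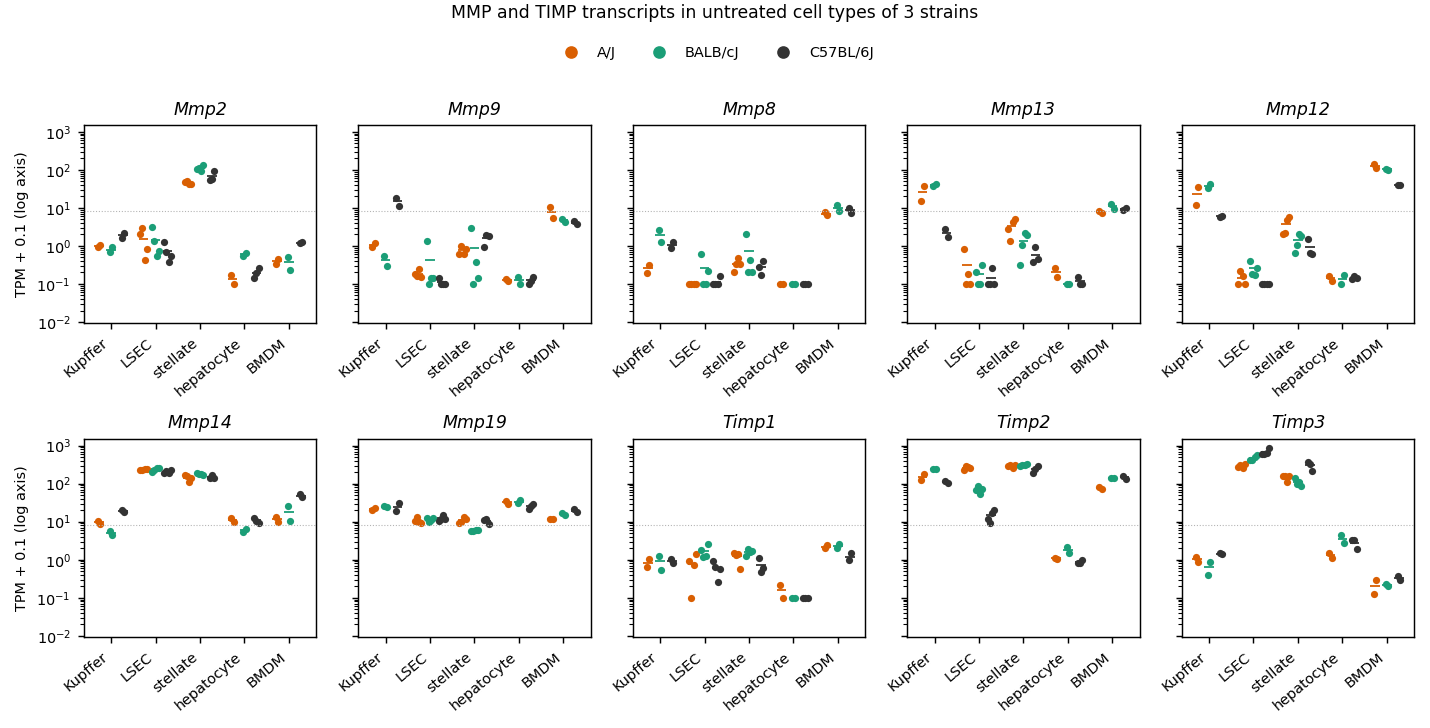
Level of each member (TPM + 0.1, log axis) in single untreated libraries of 5 cell types, coloured by strain, with short bars at strain means and a dotted line at 8 TPM. Of the 5 cell types, only the macrophages pass 8 TPM for Mmp12 and Mmp13, Mmp2 sits at 41.7 to 131 TPM in stellate cells, and Timp2 in LSECs splits by strain.

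Mmp2, the gelatinase of fibroblast-like cells, was at 41.7 to 131 TPM in the 11 stellate libraries (median 59.0) and at most 2.98 TPM in any other untreated library of the 3 strains. It was 57.6-fold lower in Kupffer cells than in stellate cells (log2 −5.85 ± 0.33 SE, adjusted p = 6.8e-17). Its activator Mmp14 was at 189 to 265 TPM in LSECs and 111 to 185 TPM in stellate cells, whose difference of 0.41 ± 0.10 on the log2 scale did not reach 2-fold. Mmp14 was at 4.49 to 19.8 TPM in Kupffer cells, 18.2-fold below LSECs (log2 −4.18 ± 0.15, adjusted p = 2.6e-22), and at 9.75 to 51.8 TPM in BMDMs. Hepatocytes (5.34 to 12.5 TPM) differed from BMDMs by −0.10 ± 0.13 on the log2 scale, which was not called under TMM scaling (trimmed mean of M-values) but was −1.08 and called when libraries were scaled by total counts.

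Among the inhibitors, Timp3 was at 265 to 850 TPM in LSECs and 88.1 to 380 TPM in stellate cells, a called difference of 1.31 ± 0.15 on the log2 scale. It was at 0.308 to 1.38 TPM in Kupffer cells and at most 0.264 TPM in BMDMs, so both macrophages were near its floor. Timp2 ran in another order, with 188 to 321 TPM in stellate cells, 105 to 248 TPM in Kupffer cells, 72.8 to 157 TPM in BMDMs and 9.10 to 297 TPM in LSECs. Neither stellate cells and Kupffer cells (log2 −0.56 ± 0.13 for Kupffer cells) nor Kupffer cells and BMDMs (0.59 ± 0.14) differed by 2-fold, and hepatocytes were at 0.718 to 2.04 TPM. Timp1, an inhibitor known to be induced in injured tissue, was at most 2.56 TPM in all 42 of these libraries and was tested in no pair of cell types.

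Mmp12 was at 39.5 to 142 TPM in BMDMs and 5.80 to 42.5 TPM in Kupffer cells, 4.22-fold lower in the latter (log2 −2.08 ± 0.24, adjusted p = 1e-08). Stellate libraries held 0.497 to 5.72 TPM of Mmp12, with the highest values in A/J, whose libraries also held most Kupffer marker RNA, and LSECs at most 0.307 TPM. Mmp13 ran at 1.62 to 43.6 TPM in Kupffer cells and 7.35 to 12.5 TPM in BMDMs, which did not differ on average over the strains (log2 0.62 ± 0.31, adjusted p = 0.065). Mmp8 was at 6.21 to 11.8 TPM in BMDMs and 11.5-fold lower in Kupffer cells (log2 −3.52 ± 0.45), and it was listed at 0 in all 7 hepatocyte libraries. Mmp9 was 2.83-fold lower (log2 −1.50 ± 0.50, adjusted p = 0.007), although DESeq2 did not call it (−1.44) and C57BL/6J Kupffer cells, at 10.8 and 18.5 TPM, lay above all 6 BMDM libraries (3.72 to 10.5 TPM). Mmp19 was the only member with its highest levels in hepatocytes, at 21.4 to 36.6 TPM. These were 2.63-fold above Kupffer cells (18.9 to 31.0 TPM, adjusted p = 2.6e-13) and 8.41-fold above stellate cells (5.61 to 13.4 TPM). Total count scaling moved the median of all genes in the comparison of Kupffer cells with hepatocytes from 0.07 to 0.91 on the log2 scale, and the Mmp19 difference from −1.40 to −0.56, which was not called.

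Between strains, Mmp9, Mmp12, Mmp13 and Mmp14 differed most in macrophages, Timp2 and Timp3 in the endothelium, and Mmp2 and Timp3 in stellate cells. In Kupffer cells, against C57BL/6J, 3 of 6 members tested were called in A/J and 5 of 6 in BALB/cJ, where 5.00% and 6.18% of all genes were called. The filter asks for 8 TPM in only 1 group, in this and every later comparison, so a member that is low in the other group enters through the group where it is high and has to differ. Here that held for Mmp9, which entered through C57BL/6J, and for Mmp12 and Mmp13, which entered through the other strains. In BALB/cJ against C57BL/6J it also held for Mmp14, at a mean of 5.00 TPM against 19.1 TPM. These counts of members are therefore a description. None of 5 was called between A/J and BALB/cJ (background 3.92%), although 4 of 5 had an unadjusted p under 0.05 (DESeq2 also called 0). Without A/J library 2, which held the higher levels of Mmp12 and Mmp13, both these genes were called lower in A/J (−1.65 and −1.43).

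Mmp12 in untreated Kupffer cells was at 5.80 and 6.12 TPM in C57BL/6J, 11.8 and 34.9 TPM in A/J, and 33.5 and 42.5 TPM in BALB/cJ. The C57BL/6J libraries lay below all 4 others. The log2 difference from C57BL/6J was 1.92 ± 0.37 for A/J (adjusted p = 0.0069) and 2.71 ± 0.37 for BALB/cJ (adjusted p = 0.00082). The A/J difference rested on the wide pair of A/J libraries, at 2.44 without library 1 and 1.07 without library 2, and it was no longer called without C57BL/6J library 1 (1.84) or in a fit over all inbred Kupffer libraries (1.90). The neighbouring collagenase gene Mmp13 had the same order, at 1.62 and 2.67 TPM in C57BL/6J, 14.8 and 37.2 TPM in A/J and 38.2 and 43.6 TPM in BALB/cJ, and A/J differed from C57BL/6J by 3.54 ± 0.38 on the log2 scale (adjusted p = 0.0002). The gelatinase gene Mmp9 ran the other way. Its levels in A/J (0.850 and 1.10 TPM) lay with those in BALB/cJ (0.201 and 0.456 TPM) and far below C57BL/6J (10.8 and 18.5 TPM), with an A/J difference of −3.91 ± 0.33 (adjusted p = 3.1e-05). The sum of 4 monocyte markers was also highest in the untreated C57BL/6J Kupffer libraries, at 116 to 167 TPM. It was 20.0 to 47.5 TPM in A/J and 10.5 to 20.4 TPM in BALB/cJ. The part of monocyte RNA in the strain differences of Mmp9 and the other members was not tested.

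Mmp14 ran in the direction of Mmp9 at a smaller scale. It was at 4.49 and 5.51 TPM in BALB/cJ, 8.68 and 10.4 TPM in A/J, and 18.4 and 19.8 TPM in C57BL/6J, with no overlap between strains. BALB/cJ was 3.69-fold below C57BL/6J (log2 −1.88 ± 0.18, adjusted p = 8.7e-05), and the A/J difference of −0.99 ± 0.17 (adjusted p = 0.004) was just short of 2-fold (−1.01 and called with DESeq2). Timp2, the partner of Mmp14, was at 239 and 248 TPM in BALB/cJ against 105 and 120 TPM in C57BL/6J (log2 1.16 ± 0.13, adjusted p = 0.00028). Mmp19 was at 18.9 to 31.0 TPM in all 3 strains and was called in no pair.

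**Figure D2:**
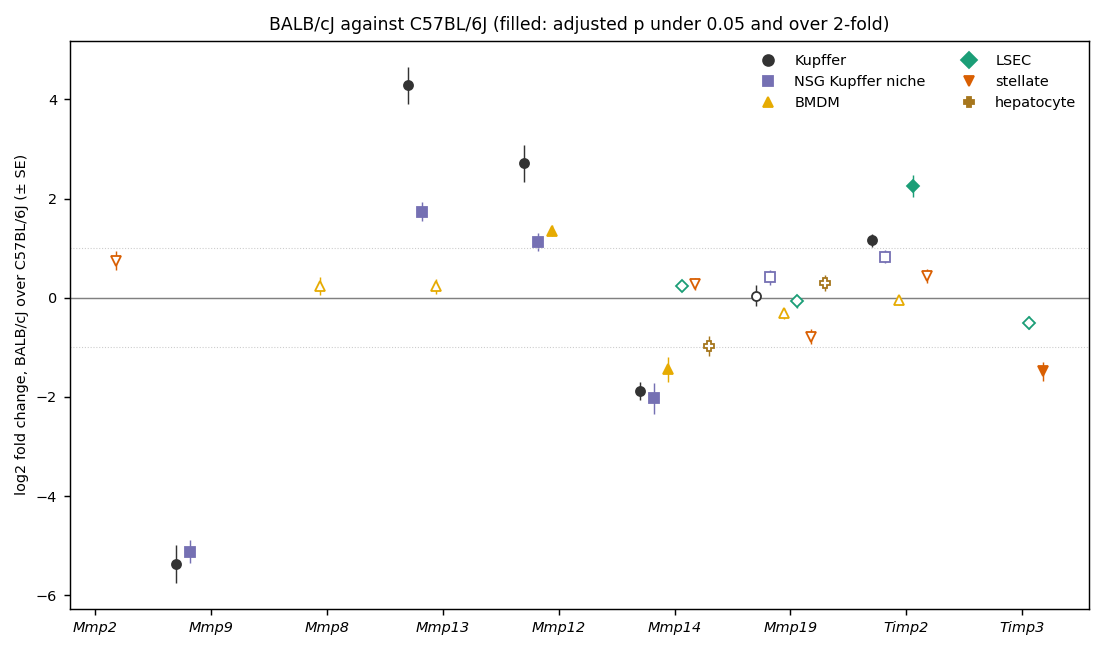
Log2 fold change of BALB/cJ over C57BL/6J with its standard error for each member tested, by cell type, with filled symbols for called differences and dotted lines at 2-fold. Mmp14 is lower in BALB/cJ in Kupffer cells, graft-derived Kupffer cells and BMDMs, and Mmp13 is higher in both kinds of Kupffer cells but not in BMDMs.

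In PBS-treated BMDMs 2 of 6 members were called in A/J (background 5.69%) and 2 of 6 in BALB/cJ (4.70%) against C57BL/6J. None of 6 was called between A/J and BALB/cJ (4.23%), where all 6 had an unadjusted p under 0.05 and DESeq2 called 0. Mmp12 was at 39.5 and 39.8 TPM in C57BL/6J, 101 and 103 TPM in BALB/cJ and 109 and 142 TPM in A/J, again with C57BL/6J lowest (log2 1.60 ± 0.11 for A/J and 1.35 ± 0.11 for BALB/cJ). Mmp14 was at 45.3 and 51.8 TPM in C57BL/6J, 10.6 and 25.3 TPM in BALB/cJ and 9.75 and 13.1 TPM in A/J, 4.47-fold below C57BL/6J for A/J (log2 −2.16 ± 0.26, adjusted p = 9e-06). For BALB/cJ the difference was −1.44 ± 0.25, and it was −0.96 and not called without BALB/cJ PBS library 2, which held the lower level.

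The strain differences of Mmp9, Mmp13 and Timp2 were not the same in Kupffer cells and BMDMs. A test of the difference between cell types called Mmp9 (log2 −4.82 ± 0.48 for A/J and −5.54 ± 0.54 for BALB/cJ, each against C57BL/6J), Mmp13 (3.84 ± 0.44 and 4.08 ± 0.44) and Timp2 (1.40 ± 0.17 and 1.24 ± 0.17), where 8.32% and 7.71% of genes were called. In BMDMs Mmp9 was at 3.72 to 10.5 TPM and Mmp13 at 7.35 to 12.5 TPM over all 3 strains. For Mmp14 the strain effect of BALB/cJ over C57BL/6J differed between the cell types by −0.41 ± 0.42 (adjusted p = 0.54). Between A/J and BALB/cJ 3 of 6 members were called (9.53% of genes), with Mmp8, which entered only through BMDMs and was at most 2.53 TPM in Kupffer cells, at −3.10 ± 0.71, Mmp14 at 1.57 ± 0.43 and Mmp12 at −1.08 ± 0.38. The Mmp14 call was lost without A/J PBS library 2 (1.38), BALB/cJ PBS library 1 (0.80) or native BALB/cJ library 2 (1.44). Mmp12 was also called between BALB/cJ and C57BL/6J (1.40 ± 0.41), but DESeq2 called neither Mmp12 difference (−1.05 and 1.36), and they were lost when any library was left out other than A/J Kupffer library 2 (−0.53 to −1.25) and when any BALB/cJ or C57BL/6J library was left out other than BALB/cJ Kupffer library 1 (1.21 to 1.44).

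In LSECs the strain effects fell on the inhibitors. Timp3 was at 265 to 337 TPM in the 4 A/J libraries, 412 to 579 TPM in BALB/cJ and 602 to 850 TPM in C57BL/6J, without overlap, and A/J was 2.21-fold below C57BL/6J (log2 −1.14 ± 0.13, adjusted p = 5.9e-05). Timp2 ran in the reverse order, at 226 to 297, 52.6 to 85.9 and 9.10 to 20.8 TPM, so the C57BL/6J endothelium held the most Timp3 and the least Timp2. In the pairs of A/J with BALB/cJ, A/J with C57BL/6J and BALB/cJ with C57BL/6J, 1, 2 and 1 of 4 members were called, against 2.81%, 4.20% and 3.95% of genes. Mmp14 (189 to 265 TPM) and Mmp19 (8.99 to 14.6 TPM) were called in no pair of strains.

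In stellate cells Timp3 was at 380, 338 and 216 TPM in C57BL/6J, against 88.1 to 137 TPM in BALB/cJ and 112 to 164 TPM in A/J. C57BL/6J was again the highest strain, as in LSECs, whose markers these libraries also held. BALB/cJ was 2.80-fold lower (log2 −1.48 ± 0.19, adjusted p = 0.00016) and A/J 2.01-fold lower (−1.01 ± 0.19, adjusted p = 0.0016), and the A/J call was lost without any of A/J library 3 (−0.91), C57BL/6J library 1 (−0.85) or C57BL/6J library 2 (−0.96). Mmp2 was at 93.2 to 131 TPM in BALB/cJ and 41.7 to 50.9 TPM in A/J, which did not overlap (log2 −1.26 ± 0.17 for A/J, adjusted p = 0.00035). The BALB/cJ libraries were also those with the least Kupffer marker RNA, and their 8 stellate markers were summed to 12220 to 15290 TPM against 7019 to 10140 TPM in A/J, again with no overlap. The part of this in the Mmp2 difference was not tested. In each pair 1 of 5 members was called, against 8.38%, 7.42% and 9.19% of genes. In hepatocytes 0 of 2 members (Mmp14 and Mmp19) were called in the 3 pairs (5.71%, 3.81% and 9.63% of genes), with 1, 0 and 1 at an unadjusted p under 0.05 and none by DESeq2. Mmp14 in A/J differed from BALB/cJ by 0.99 ± 0.22 (adjusted p = 0.021), and in BALB/cJ from C57BL/6J by −0.98 ± 0.20 (adjusted p = 0.0084). The first was called without A/J library 2 (1.14), the second without BALB/cJ library 2 (−1.14) or C57BL/6J library 3 (−1.10), and also, just at 2-fold, without C57BL/6J library 2.

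The other genes of the pathway came from 3 lists (17 other MMPs and Timp4, 13 ADAM and ADAMTS proteases, and 16 genes of activation, inhibition and clearance). In Kupffer cells Mmp27 was the only one of the first list to be tested between strains. It was at 57.7 to 62.9 TPM in C57BL/6J, 28.4 to 30.0 TPM in BALB/cJ and 14.4 to 15.1 TPM in A/J (log2 −2.04 ± 0.13 for A/J against C57BL/6J). Plau, the urokinase that turns plasminogen into plasmin, was lower in C57BL/6J in both macrophages, although the A/J call in Kupffer cells was lost without A/J library 2 (0.98) or C57BL/6J library 1 (1.00). It was at 142 to 189 TPM in C57BL/6J BMDMs against 386 to 391 TPM in BALB/cJ and 674 to 772 TPM in A/J (log2 2.07 ± 0.12 for A/J and 1.22 ± 0.11 for BALB/cJ). Of the activation list, 2 of 8 genes tested were called against C57BL/6J in A/J Kupffer cells, 1 higher and 1 lower (5.00% of all genes called). In BALB/cJ Kupffer cells 2 of 6 were called, both higher (6.18%).

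The CB6F1/J hybrid carries both parental alleles in the same cells, so its reads over variant positions compare the alleles in one environment. Hybrid levels come from a table made separately from that of the inbred strains and are set beside theirs as values. In untreated hybrid Kupffer cells Mmp13 was at 9.65 to 13.5 TPM and Mmp12 at 7.41 to 25.9 TPM, both between the parents. Mmp9 was at 1.15 to 1.79 TPM and Mmp14 at 4.88 to 8.46 TPM, nearer to BALB/cJ.

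Only Mmp14, Mmp9, Mmp2 and Timp3 had variant-spanning reads. Mmp12, Mmp13, Mmp19, Mmp8, Timp1 and Timp2 had none, so their alleles could not be compared. Mmp14 gave a BALB/cJ share of 40.2% ± 1.63 (SD, n = 4) on 3074 reads in untreated Kupffer cells, with single libraries between 38.2% and 42.2%. After LPS the share was 43.6% ± 0.961 (n = 5), from 42.6% to 44.6%, and in the hybrid grafts 42.9% ± 0.606 (n = 3). All 12 hybrid Kupffer libraries therefore had more C57BL/6J than BALB/cJ reads for Mmp14, while the median share over genes was 49.7% to 50.0%. The allele difference was −0.52 ± 0.04 on the log2 scale (adjusted p = 5.3e-05) without and −0.33 ± 0.02 (adjusted p = 1.4e-05) with LPS, below the 2-fold limit of a call and smaller than the −1.88 between the parental strains. The change of the allele difference with LPS was 0.19 ± 0.05 (adjusted p = 0.085).

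In hybrid BMDMs the Mmp14 share was 47.5% and 47.6% with PBS and 50.5% and 51.8% with KLA, near an even split. The parental BMDMs differed by −1.44 on the log2 scale in the PBS group, against an allele difference of −0.11 ± 0.02 in the hybrid. Mmp9 gave a share of 45.0% ± 3.64 (n = 4) on 241 reads in untreated Kupffer cells, an allele difference of −0.24 ± 0.58 (adjusted p = 0.95), against a parental difference of −5.37. After LPS its shares ran from 18.2% to 90.4% on 141.5 reads in all, and without library 4, which gave 90.4% on 26 reads, the allele difference became −1.23 and was called. Mmp2 was at 51.8% ± 5.24 and Timp3 at 45.0% ± 4.71 in untreated Kupffer cells. No member was called in any of the 7 allele tests (0 of 4 each). The share of genes called was 4.64% without and 7.22% with LPS, 1.20% for the change with LPS, 6.23% with PBS, 5.65% with KLA, 0.0185% for the change with KLA and 2.32% in the grafts. In each test 1 to 3 of 4 members had an unadjusted p under 0.05, and DESeq2 called none.

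**Figure D3:**
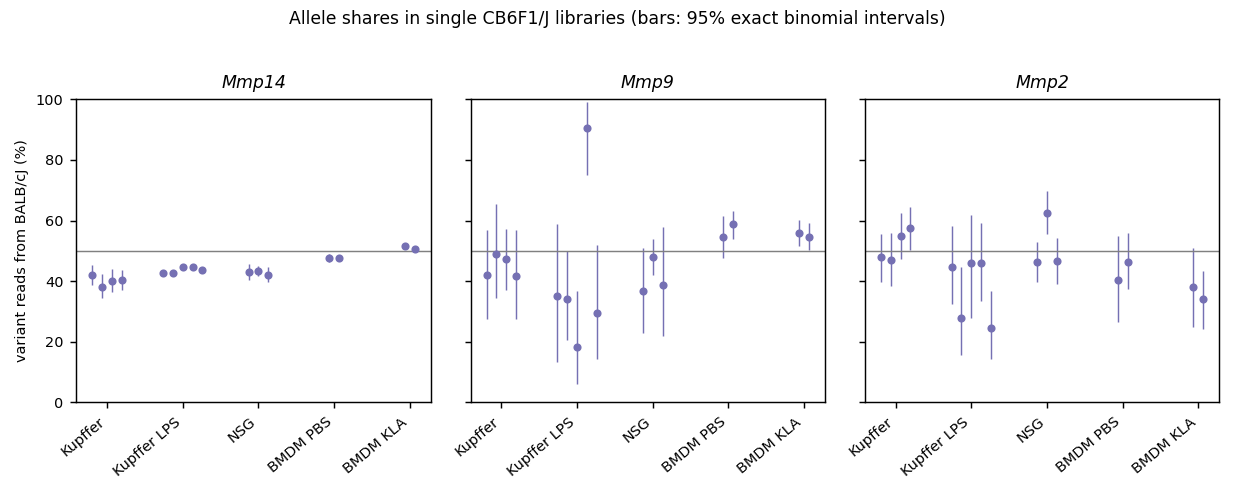
Share of variant-spanning reads from the BALB/cJ allele (percent) in single CB6F1/J libraries, with 95% exact binomial intervals that cover counting error only and a line at 50%. All Kupffer points of Mmp14 lie between 38.2% and 44.6%, and the Mmp9 points after LPS scatter widely.

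LPS raised 4 of the 7 MMPs in Kupffer cells of both parental strains within 2 h. Mmp13, Mmp14, Mmp12 and Mmp19 were called higher in BALB/cJ (4 of 5 members tested) and C57BL/6J (4 of 6), and these 4 with Timp1 in the hybrid (5 of 6). Shares of 17.6%, 21.0% and 21.5% of all genes were called higher. Kupffer marker RNA was lower in the LPS libraries (8535 to 11010 TPM) than in untreated ones, and 8 neutrophil markers were summed to 40.8 to 186 TPM against 1.35 to 7.71 TPM. The sum of 4 monocyte markers was 107 to 130 TPM with LPS and 10.5 to 20.4 TPM without in BALB/cJ, 162 to 204 and 116 to 167 TPM in C57BL/6J, and 174 to 230 and 20.9 to 51.2 TPM in the hybrid. Hepatocyte markers (5 genes) were summed to 272 to 504 TPM with LPS and 109 to 239 TPM without in BALB/cJ, 551 to 1338 and 154 to 420 TPM in C57BL/6J, and 226 to 828 and 224 to 478 TPM in the hybrid, where they overlapped. The part of these shifts was not tested, while Mmp8, a neutrophil collagenase, was tested in none of the 3 comparisons.

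Mmp13 rose from 38.2 and 43.6 TPM to 2857 and 3522 TPM in BALB/cJ, from 1.62 and 2.67 TPM to 365 and 1606 TPM in C57BL/6J, and from 9.65 to 13.5 TPM to 1996 to 3150 TPM in the hybrid. These rises were 6.82 ± 0.71 (adjusted p = 6.8e-05), 9.54 ± 0.82 (adjusted p = 1.9e-05) and 8.65 ± 0.18 (adjusted p = 3.8e-12) on the log2 scale. Mmp14 went from 4.49 and 5.51 TPM to 280 and 286 TPM in BALB/cJ and from 18.4 and 19.8 TPM to 441 and 473 TPM in C57BL/6J, rises of 81.7-fold (log2 6.35 ± 0.19, adjusted p = 2.6e-07) and 38.3-fold (5.26 ± 0.18, adjusted p = 3.5e-07). All 4 LPS libraries of these strains stood above every untreated LSEC library for Mmp14. In the hybrid Mmp14 reached 306 to 382 TPM, 95.1-fold above the controls.

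The elastase gene Mmp12 rose to 135 and 135 TPM in BALB/cJ, 37.4 and 37.6 TPM in C57BL/6J and 68.9 to 85.5 TPM in the hybrid (log2 2.37 ± 0.15, 3.33 ± 0.17 and 3.26 ± 0.30). The LPS level of C57BL/6J was therefore near the untreated level of BALB/cJ. Mmp19 rose to 109 and 127 TPM, 82.9 and 110 TPM, and 132 to 163 TPM (2.78 ± 0.27, 2.63 ± 0.27 and 3.81 ± 0.10). Timp1 was at most 1.23 TPM in untreated Kupffer cells and at 3.42 to 10.5 TPM after LPS. It passed the filter in the hybrid alone, where it rose 14.1-fold (log2 3.81 ± 0.18, adjusted p = 1.3e-09).

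**Figure D4:**
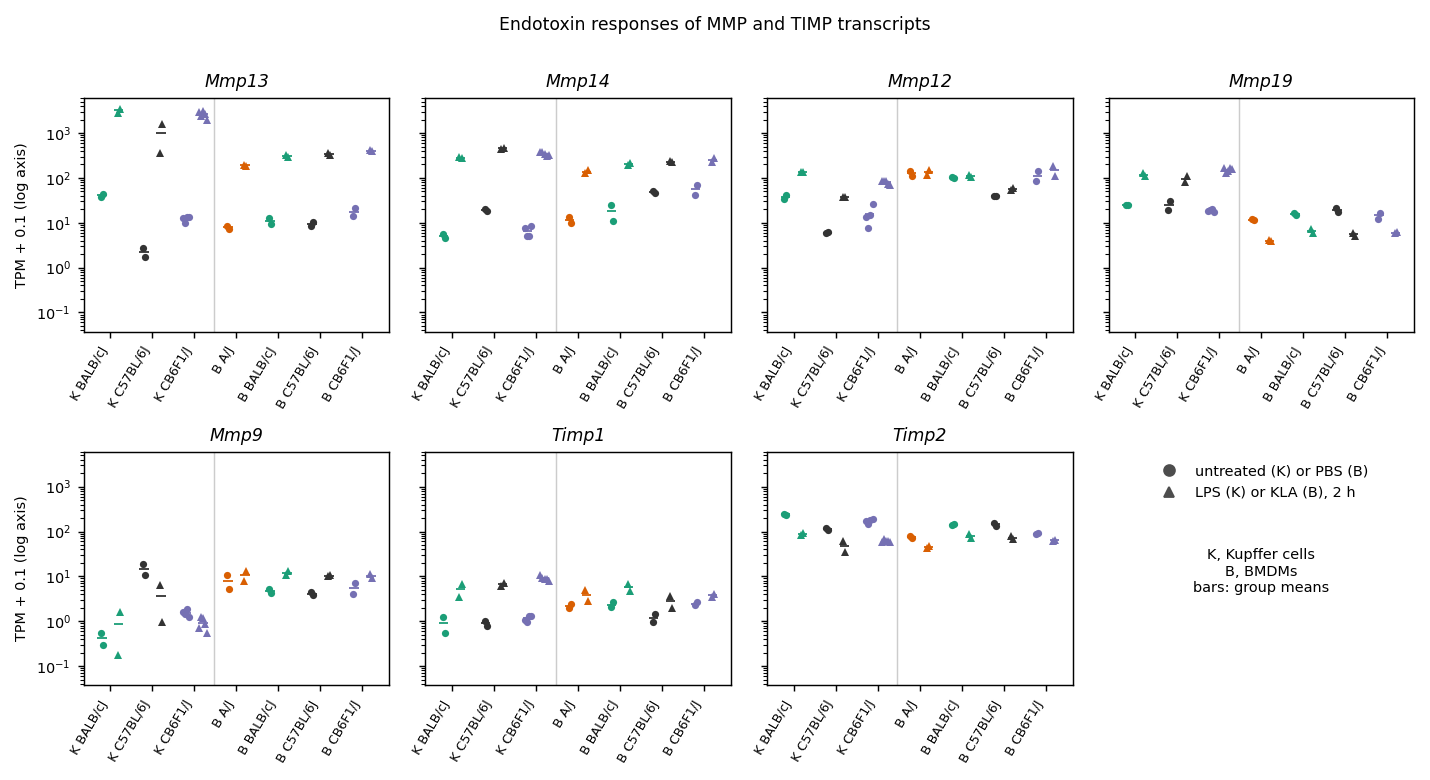
Level of 7 members (TPM + 0.1, log axis) in single libraries of Kupffer cells (K) without and with LPS and of BMDMs (B) with PBS or KLA, with short bars at group means. Mmp13 and Mmp14 rise in every group of both cells, and Mmp19 rises in Kupffer cells but is called lower with KLA in BMDMs of A/J and C57BL/6J. Timp2 lies lower with LPS or KLA, by less than 2-fold under TMM scaling in every comparison.

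Timp2 was not called in any of the 3 LPS comparisons under TMM scaling, although its levels did not overlap. It was at 81.8 and 91.5 TPM after LPS in BALB/cJ (239 and 248 TPM without), 34.4 and 60.6 TPM in C57BL/6J (105 and 120 TPM) and 57.1 to 66.9 TPM in the hybrid (146 to 186 TPM). Its log2 differences of −0.96 ± 0.21, −0.59 ± 0.21 and −0.58 ± 0.09 were below 2-fold under TMM scaling. It was called without LPS library 2 of BALB/cJ (−1.08) and, just at 2-fold, its untreated library 2, and without LPS library 1 of C57BL/6J (−1.01). Scaling by total counts, chosen after seeing the data, moved the median of all genes from 0.05, 0.08 and 0.11 to −0.49, −0.59 and −0.71, and gave called decreases of Timp2 in all 3 (−1.49, −1.24 and −1.40). Under that scaling 798 genes were called higher and 2258 lower in BALB/cJ, against 1364 and 1125 under TMM, and 900 and 2768 in C57BL/6J, against 1641 and 1366.

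The size of the LPS response was compared between BALB/cJ and C57BL/6J, and 0 of 6 members were called (0.536% of genes), with 3 of 6 at an unadjusted p under 0.05 and 1 called by DESeq2. The difference was 1.09 ± 0.22 for Mmp14 (adjusted p = 0.083) and −2.72 ± 0.86 for Mmp13 (adjusted p = 0.22). C57BL/6J LPS library 1 had the lower Mmp13 level (365 against 1606 TPM), and without it Mmp14 (1.01) and Mmp13 (−3.42) were called. Without C57BL/6J LPS library 2 the Mmp13 difference was −1.17 and not called.

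Of the 16 activation, inhibition and clearance genes, 7 of 11 tested were higher in BALB/cJ, 8 of 11 in C57BL/6J and 7 of 11 in the hybrid, and none was lower, against 17.6%, 21.0% and 21.5% of all genes called higher. The genes called include Plg (1.81 ± 0.48, 2.45 ± 0.48 and 1.18 ± 0.38) and, in the inbred strains, Pzp (1.72 ± 0.48 and 2.74 ± 0.48). Both are hepatocyte transcripts, at 1186 to 3436 TPM in hepatocytes and at most 39.2 TPM in these Kupffer libraries, and hepatocyte marker RNA was higher in the LPS libraries of the inbred strains, as given above. The part of hepatocyte RNA was not tested. The list's median log2 change was 1.78, 2.45 and 1.18, beside 0.05, 0.08 and 0.11 over all genes. Serpinb2, an inhibitor of plasminogen activators, was listed at 0 in the untreated libraries of both strains and was at 11.3 to 21.3 TPM after LPS. Plaur, the urokinase receptor, rose by 3.35 ± 0.68 and 4.36 ± 0.72. Of the ADAM list, Adamts4, an aggrecanase, was at most 0.024 TPM without and 9.05 to 28.9 TPM with LPS in these strains, and Adam9 and Adam17 rose in all 3 comparisons (Adam17 by 1.45, 1.40 and 1.40).

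In BMDMs given KLA for 2 h, Mmp13 and Mmp14 rose in all 3 strains and the hybrid. In all, 3 of 6 members tested were called in A/J, 3 of 7 in BALB/cJ, 4 of 7 in C57BL/6J and 3 of 7 in the hybrid, where 12.3%, 14.0%, 17.1% and 12.7% of genes were called. Mmp13 reached 188 and 197 TPM in A/J (7.35 and 8.42 TPM with PBS), 288 and 317 TPM in BALB/cJ (9.46 and 12.5 TPM) and 332 and 354 TPM in C57BL/6J (8.46 and 10.1 TPM), log2 rises of 4.95 ± 0.14, 5.10 ± 0.14 and 5.50 ± 0.14. Unlike in Kupffer cells, the PBS levels of the strains were alike, with no called difference. Mmp9 rose by 1.68 ± 0.26 in BALB/cJ, 1.65 ± 0.27 in C57BL/6J and 1.31 ± 0.25 in the hybrid, to between 9.23 and 13.2 TPM, and its A/J difference of 0.80 ± 0.26 was not called. The hybrid call was lost without PBS library 1 (0.97), and the A/J difference was called without KLA library 1 (1.11) or PBS library 1 (1.35). In Kupffer cells of C57BL/6J, where Mmp9 was highest, its LPS difference was −1.39 ± 0.84 (adjusted p = 0.18), with −3.36 and a call without LPS library 1 and −0.65 without LPS library 2.

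Mmp14 showed a strain difference in its response to KLA. It rose from 9.75 and 13.1 TPM to 126 and 151 TPM in A/J, from 10.6 and 25.3 TPM to 198 and 213 TPM in BALB/cJ, and from 45.3 and 51.8 TPM to 224 and 237 TPM in C57BL/6J. The log2 rises of 3.95 ± 0.28, 3.82 ± 0.27 and 2.55 ± 0.25 brought the strains closer together. The response was larger than in C57BL/6J by 1.40 ± 0.35 in A/J (adjusted p = 0.022) and 1.27 ± 0.35 in BALB/cJ (adjusted p = 0.041), 1 of 7 members called in each pair against 1.64% and 1.28% of genes. DESeq2 called neither (1.39 and 1.30), and the calls rested on single libraries. The A/J call was lost without A/J KLA or PBS library 2, either C57BL/6J KLA library or its PBS library 1 (1.19 to 1.45). The BALB/cJ call was lost without any KLA library of the 3 strains, BALB/cJ PBS library 2 or C57BL/6J PBS library 1 (0.78 to 1.34). Between A/J and BALB/cJ 0 of 7 members were called (1.05% of genes; 1 of 7 at an unadjusted p under 0.05, 0 by DESeq2).

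Mmp19, which LPS raised in Kupffer cells, was called lower with KLA in BMDMs of A/J and C57BL/6J. It was at 3.92 and 3.94 TPM with KLA in A/J (11.6 and 11.8 TPM with PBS), 5.93 and 7.07 TPM in BALB/cJ (14.8 and 16.5 TPM) and 4.97 and 5.97 TPM in C57BL/6J (17.4 and 21.1 TPM). The A/J (log2 −1.24 ± 0.14) and C57BL/6J (−1.50 ± 0.13) differences were called, and those of BALB/cJ (−0.96 ± 0.13) and the hybrid (−0.98 ± 0.17) were just under 2-fold. They were called without BALB/cJ KLA library 1 (−1.09) or PBS library 2 (−1.04), and without hybrid KLA library 2 (−1.02) or PBS library 1 (−1.21). Total count scaling, which moved the median of all genes by −0.31 to −0.38, called these 2 as well (−1.30 and −1.36), and Timp2 lower in C57BL/6J (−1.01 against −0.70 ± 0.11), but not Mmp9 in the hybrid (0.94). The agents and settings differ (LPS in the animal, KLA in culture), and the difference between them was not tested. The elastase gene Mmp12, which LPS raised in Kupffer cells, was called in none of the 4 BMDM comparisons (0.41 to 0.83 on the log2 scale), although in the hybrid it was called without KLA library 2 (1.02) or PBS library 2 (1.18).

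Of the activation list, 4 of 8 genes tested were called higher with KLA in A/J, 4 of 8 in BALB/cJ, 6 of 10 in C57BL/6J and 7 of 10 in the hybrid, and none lower, where 12.3%, 14.0%, 17.1% and 12.7% of all genes were called in either direction. Plat, the tissue plasminogen activator, reached 16.7 to 21.9 TPM in C57BL/6J, but only 0.494 to 0.651 TPM in BALB/cJ and at most 0.254 TPM in A/J. The hybrid stood between, at 8.79 to 9.29 TPM. The difference of response between BALB/cJ and C57BL/6J was −5.09 ± 0.97 for Plat (adjusted p = 0.0048), which was not called without BALB/cJ PBS library 2 (−4.46).

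Kupffer cells of AMLN-fed mice held more Mmp14 than those of untreated mice in every strain. Mmp14 was at 31.0 to 70.0 TPM in A/J (8.68 and 10.4 TPM untreated), 18.4 to 66.8 TPM in BALB/cJ (4.49 and 5.51 TPM) and 111 to 132 TPM in C57BL/6J (18.4 and 19.8 TPM). No AMLN library overlapped the untreated libraries of its strain. The log2 differences were 2.34 ± 0.52 (adjusted p = 0.016), 2.66 ± 0.55 (0.007) and 2.85 ± 0.53 (0.0017), and those of A/J and BALB/cJ were no longer called when either untreated library of the strain was left out (2.58 and 2.13 in A/J, 2.78 and 2.47 in BALB/cJ). By strain, 2 of 6 members tested were called in A/J, 2 of 6 in BALB/cJ and 4 of 7 in C57BL/6J, all higher, against 2.69%, 4.80% and 6.73% of genes called higher.

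The other members split by strain. In C57BL/6J Mmp12 was at 421 to 699 TPM in the 4 AMLN libraries against 5.80 and 6.12 TPM, a 107-fold difference (log2 6.74 ± 1.06, adjusted p = 0.00048). The highest level of Mmp12 in all 85 libraries was 699 TPM, in this group. Kupffer markers were summed to 9153 to 12010 TPM in these 4 libraries against 14470 to 15000 TPM untreated, and lymphocyte markers to 13.1 to 39.0 TPM against 2.52 to 7.98 TPM, and the part of these shifts was not tested. Mmp13 was at 49.3 to 124 TPM against 1.62 and 2.67 TPM (5.61 ± 1.11, adjusted p = 0.0024), and Mmp2 at 8.38 to 16.8 TPM (3.05 ± 0.47, adjusted p = 0.00041). In BALB/cJ neither Mmp12 (19.0 to 38.4 TPM; −0.68 ± 0.76) nor Mmp13 (5.42 to 11.6 TPM, all below the untreated 38.2 and 43.6 TPM; −2.44 ± 0.84, adjusted p = 0.1) was called. A/J libraries were spread, with Mmp12 at 8.06, 78.9, 134 and 190 TPM and Mmp13 at 0.830, 12.9, 19.5 and 33.2 TPM, and library 2 was the lowest for both. The A/J difference of Mmp12 was 2.34 ± 0.82 (adjusted p = 0.12); DESeq2 called it, and so did the fit without AMLN library 2 (2.72). The effect differed from that of C57BL/6J by −7.42 ± 1.22 for Mmp12 (adjusted p = 0.0044) and −8.05 ± 1.38 for Mmp13 (adjusted p = 0.0052) in BALB/cJ, and by −6.05 ± 1.29 for Mmp13 in A/J (adjusted p = 0.031). In these tests 3 of 8 and 1 of 8 members were called, against 6.37% and 1.45% of genes, and none of 6 was called between A/J and BALB/cJ (0.247% of genes; 1 of 6 at an unadjusted p under 0.05, 0 by DESeq2). Both BALB/cJ calls were lost without untreated C57BL/6J library 1 (−7.36 and −8.44), and the A/J call without untreated A/J library 2, either untreated library of the other strains, or C57BL/6J AMLN library 1, 3 or 4 (−5.37 to −6.42). The Mmp13 difference in BALB/cJ was called in a fit over all inbred Kupffer libraries (−2.44).

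**Figure D5:**
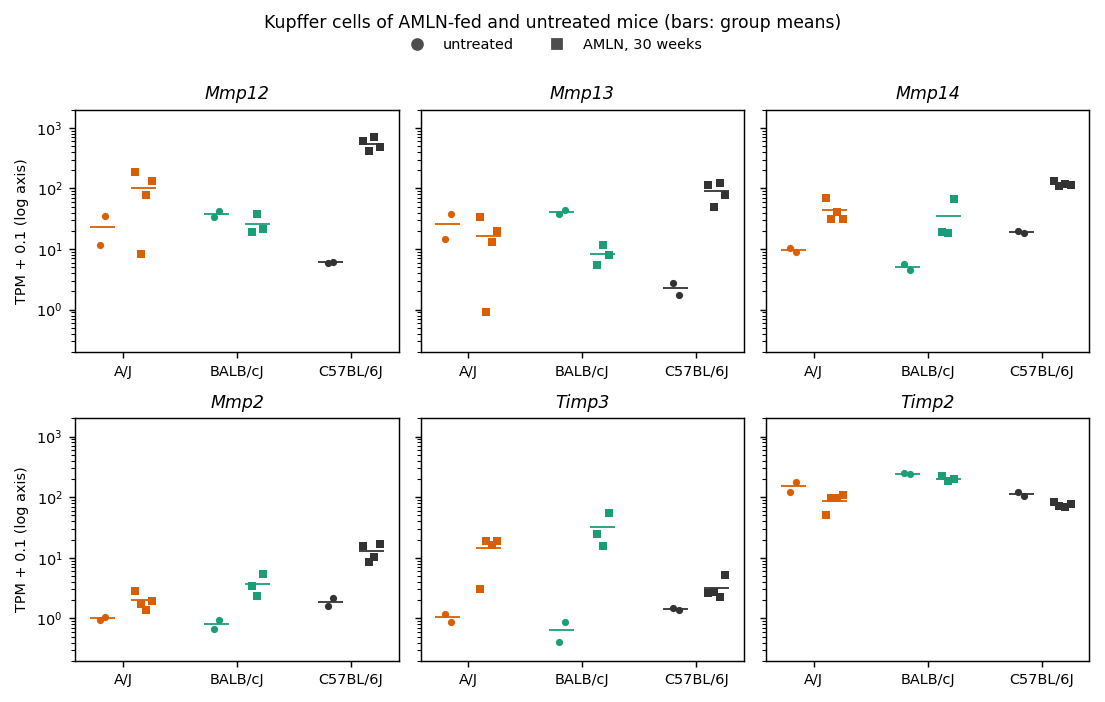
Level of 6 members (TPM + 0.1, log axis) in single Kupffer libraries of untreated and AMLN-fed mice of 3 strains, with short bars at group means. Mmp14 is called higher with the diet in each strain, and Mmp12 and Mmp13 in C57BL/6J. Timp3 is called higher in A/J and BALB/cJ and was not tested in C57BL/6J.

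Timp3 was called higher in A/J and BALB/cJ, where Mmp12 was not called. In C57BL/6J it was below the 8 TPM filter and was not tested. Timp3 was at 2.93, 16.2, 18.8 and 18.8 TPM in A/J and 15.8, 24.6 and 55.7 TPM in BALB/cJ, against 0.308 to 1.38 TPM in untreated Kupffer cells. In C57BL/6J it was at 2.12 to 5.10 TPM, above the untreated 1.29 and 1.38 TPM of that strain. The log2 differences were 3.98 ± 0.76 in A/J (adjusted p = 0.0077; not called without either untreated library, 4.34 and 3.68) and 5.76 ± 0.85 in BALB/cJ (adjusted p = 0.0014). The BALB/cJ effect exceeded that of C57BL/6J by 4.35 ± 1.00 (adjusted p = 0.02), a call that was lost without any of the 4 untreated libraries of these strains (3.77 to 5.10). LSEC markers moved with Timp3 over these libraries. Their 6-gene sum was 240, 821, 612 and 700 TPM in A/J and 703, 542 and 2066 TPM in BALB/cJ, in library order, against 105 to 181 TPM in C57BL/6J and 158 to 260 TPM in untreated Kupffer cells. Timp3 as a share of that sum was 1.22% to 2.69% in A/J and 2.70% to 3.49% in BALB/cJ, against 2.80% to 9.43% in LSECs. Stellate markers were summed to 236 to 529 TPM in AMLN-fed BALB/cJ against 23.7 to 52.3 TPM in untreated Kupffer cells of the inbred strains. Mmp14 as a share of the LSEC marker sum was 2.70% to 3.40% in BALB/cJ, beside 2.00% to 3.01% in LSECs, while in C57BL/6J it was 61.6% to 126%. In A/J it was 29.1% in library 1 and 3.78%, 6.78% and 4.50% in libraries 2 to 4. Untreated Kupffer cells had Mmp14 shares of 2.84% to 3.47% in BALB/cJ, 9.39% to 9.90% in C57BL/6J and 3.33% to 4.07% in A/J. The part of endothelial RNA in the Timp3 and Mmp14 differences was not tested.

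Of the other lists, Adam8, a membrane protease of myeloid cells, was at 117 to 131 TPM in AMLN-fed C57BL/6J against 0.349 to 1.08 TPM untreated (log2 7.59 ± 0.97, adjusted p = 0.00012), and at 4.48 to 32.5 TPM in A/J (4.26 ± 0.84; not called without either untreated library, 4.67 and 3.95). The summed neutrophil markers were 16.0 to 31.1 TPM in the former and 83.9 to 176 TPM in the latter. Plau (log2 2.56 ± 0.56) and Plaur (1.94 ± 0.22) were higher in C57BL/6J, with Plau not called without untreated library 1 (2.37). In BALB/cJ Adamts1, a protease at 189 to 244 TPM in BALB/cJ stellate cells, was higher (5.47 ± 0.91, adjusted p = 0.0019).

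Graft-derived Kupffer cells, which arose from donor marrow in the same kind of host, kept the strain differences of the proteases in direction. Mmp9 was at 24.8, 31.0 and 29.8 TPM with C57BL/6J marrow and 0.719, 1.14 and 0.523 TPM with BALB/cJ marrow (log2 −5.12 ± 0.23, adjusted p = 5.4e-08). Mmp14 was at 31.1 to 83.3 TPM against 7.66 to 16.9 TPM (−2.03 ± 0.32, adjusted p = 0.0015). Mmp13 was at 6.52 to 12.5 TPM against 30.3 to 30.7 TPM (1.73 ± 0.19, adjusted p = 9.9e-05), and Mmp12 at 6.57 to 11.5 TPM against 18.4 to 21.3 TPM (1.12 ± 0.18, adjusted p = 0.0021; 0.91 and not called without C57BL/6J graft library 2). Thus 4 of 6 members were called, against 4.26% of genes.

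Against native Kupffer cells of the same strain, 1 of 5 members was called with BALB/cJ marrow and 3 of 6 with C57BL/6J marrow (5.73% and 8.60% of genes). Mmp14 was higher in grafts of both (log2 1.35 ± 0.37, adjusted p = 0.018, and 1.50 ± 0.34, adjusted p = 0.0037), and leaving out native library 1 or 2 (1.51 and 1.15) or graft library 1 or 2 (1.23 and 1.11) ended the BALB/cJ call. Mmp13 was 4.30-fold higher in C57BL/6J grafts (2.10 ± 0.26, adjusted p = 4e-05), and Mmp19 lower (−1.15 ± 0.19; −0.75 without native library 2). The gap between the strains was narrower in grafts for Mmp13 (−2.56 ± 0.32, adjusted p = 0.00046) and Mmp12 (−1.61 ± 0.27, adjusted p = 0.0055), 2 of 6 members against 1.49% of genes, while the change was 0.24 ± 0.51 for Mmp9 and −0.15 ± 0.49 for Mmp14. Adam19 (log2 8.37 ± 0.95 and 5.73 ± 0.71) and Adam8 (2.97 ± 0.56 and 4.87 ± 0.65) were higher in the grafts of BALB/cJ and C57BL/6J marrow. Lymphocyte markers were summed to 61.0 to 351 TPM in these libraries against 0.388 to 7.98 TPM in untreated Kupffer cells of the inbred strains, and monocyte markers to 125 to 193 TPM against 10.5 to 20.4 TPM in BALB/cJ and 186 to 227 TPM against 116 to 167 TPM in C57BL/6J. Their part in the graft differences was not tested. In the hybrid libraries labelled NSG in their names, Mmp9 was at 1.31, 1.33 and 8.08 TPM, Mmp13 at 2.02 to 3.38 TPM and Mmp14 at 12.3 to 22.2 TPM.

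Over the 25 groups of the inbred strains, the genes whose levels were most like those of each member were found among 11922 genes by Pearson's r of log2(TPM + 1). These r are descriptions, since groups share strains and cell types. Timp3 was followed most closely by the endothelial genes Robo4 (0.996), Shank3 (0.995) and Esam (0.994). Mmp13 went with Mx1 (0.950), Ccl4 (0.944) and Il27 (0.942), genes known to be induced by endotoxin. Mmp12 went with Cndp2 (0.937), Efhd2 (0.930) and Ctsz (0.929), and Mmp2 with Chpf (0.949), Mrc2 (0.942) and Ramp1 (0.942). No gene exceeded 0.893 for Mmp14 (Slc44a1), 0.885 for Mmp19 (Gzf1) or 0.876 for Mmp9 (Fcrl1), whose patterns cross cell types and treatments. The highest were Gla for Mmp8 (0.955), Dlg4 for Timp2 (0.937) and, for Timp1, which stayed at low levels, Cmpk2 (0.944).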

How the data were processed

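The authors aligned poly(A) RNA-seq reads with STAR to mm10 or to mm10 carrying the alleles of A/J or BALB/cJ, and counted reads over exons with HOMER. The deposited tables hold raw counts, expected counts in steps of 0.5 for BMDMs and hybrids (rounded here), and TPM values made by the authors, which summed to 501281 to 595601 per inbred library. Hybrid reads were aligned to both genomes and kept where they aligned perfectly, and the deposited variant-spanning counts gave the allele tests. Hybrid TPM was the mean over both genomes and was not tested against the inbred strains. The members and gene lists were chosen with earlier results of these data known.

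Genes were tested with edgeR 4.0.16 (quasi-likelihood, TMM) in R 4.3.3 on the groups of each comparison, after filterByExpr and a mean above 8 TPM in at least 1 group. Calls needed both a p under 0.05 after Benjamini-Hochberg adjustment over all genes tested and a change over 2-fold; errors of log2 differences are standard errors. Allele tests covered autosomal genes that averaged 10 or more variant-spanning reads per mouse, with the mouse as a block. From the other lists, the plan was to name up to 6 called genes per kind of comparison, by size of change. The code was tested on simulated data. No 2 libraries of a group were duplicates.

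The alternatives were DESeq2 1.42.0, no TPM filter, the replicate number as a block, 1 fit over all inbred Kupffer libraries, stricter variant-read limits, leaving out each library in turn and, added after seeing the data, total count scaling. Depth limits the allele shares of Mmp9, Mmp2 and Timp3, and intervals cover counting error only. The counts over the activation list include 1 gene whose values are not reported here.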

Additional observations from a re-analysis of the deposited data

Results flagged for a closer look

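Among 43 sets of 4 or 5 libraries, 2 held a library far from the others, where chance gives about 1 in 20. Timp3 was at 2.931 TPM in AMLN-fed A/J library 1, against 16.2 to 18.8 TPM in the other 3, and this was also the library of that group with the lowest LSEC marker sum (240 TPM against 612 to 821 TPM). Timp3 was at 111.9 TPM in A/J stellate library 3, against 156 to 164 TPM in the other 3.

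An effect differed between strains or cell types for the following members, by the test of the difference itself. The KLA response of Mmp14 in BMDMs exceeded that of C57BL/6J by 1.40 in A/J and 1.27 in BALB/cJ on the log2 scale. As given above, DESeq2 called neither, and both calls were lost when single libraries were left out. The AMLN difference of Mmp13 was below that of C57BL/6J by −6.05 in A/J and −8.05 in BALB/cJ, that of Mmp12 by −7.42 in BALB/cJ, and that of Timp3 was above it by 4.35 in BALB/cJ. The difference between graft-derived and native Kupffer cells was lower with BALB/cJ than with C57BL/6J marrow by −1.61 for Mmp12 and −2.56 for Mmp13.

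Strain effects were called different between Kupffer cells and BMDMs for 6 members. Between A/J and BALB/cJ (9.53% of genes called) they differed by −3.10 for Mmp8, 1.57 for Mmp14 and −1.08 for Mmp12. Between A/J and C57BL/6J (8.32%) they differed by 1.40 for Timp2, −4.82 for Mmp9 and 3.84 for Mmp13. Between BALB/cJ and C57BL/6J (7.71%) they differed by 1.24 for Timp2, 1.40 for Mmp12, −5.54 for Mmp9 and 4.08 for Mmp13. As given above, Mmp8 entered only through BMDMs, and DESeq2 called neither Mmp12 difference. The Mmp12 and Mmp14 calls were lost when single libraries were left out. What lies behind these differences was not tested.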

How the results depend on the processing

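Of 132 differences of members that were called, 107 kept their call under every alternative run and none changed direction. DESeq2 kept 124, the fits without the TPM filter 130 and the fits with the replicate number as a block 129. The block ended the calls of Timp3 in stellate cells (A/J against C57BL/6J, −0.97), Mmp13 in the AMLN contrast of A/J and C57BL/6J (−6.28) and Mmp9 between Kupffer and stellate cells (0.84). The numbers did not pair the libraries: deviations of libraries with the same number correlated at −0.09 to 0.15 in Kupffer cells of the 3 strains, −0.50 to 0.63 in LSECs and −0.27 to 0.43 in stellate cells.

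Without the TPM filter, which left more members to test, 6 differences were called between strains in stellate cells (3 with it), 3 in hepatocytes (0), 8 between grafts and native cells (4) and 1 between strains in the KLA response (2). The block gave 1 in hepatocytes. DESeq2 gave 1 difference between strains in the LPS response (0), 0 in the KLA response (2) and 7 in the AMLN contrast (4). Total count scaling gave 1 in the LPS response. The fit over all inbred Kupffer libraries gave 2 between graft strains (4). The cause of these shifts was not tested.

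Leaving out 1 library ended 22 of the 132 calls at least once. The count of called members then ran from 0 to 1 between strains in hepatocytes, 0 to 2 for strain and LPS, 0 to 3 for strain and KLA, 0 to 7 for strain and AMLN, 3 to 5 for KLA in the hybrid and 0 to 1 for alleles in hybrid Kupffer cells. Differences that were not called changed sign for Mmp14 between A/J and BALB/cJ BMDMs (−1.20 to 0.05), for Mmp14 between hepatocytes and BMDMs (−0.26 to 0.16, and 0.07 with DESeq2), and for alleles of Timp3 with LPS (−0.03 to 0.42) and KLA (−0.15 to 0.89), of Mmp2 in grafts (−0.17 to 0.30) and of Mmp9 by LPS (−0.98 to 0.12) and by KLA (−0.21 to 0.02). Groups of 2 libraries limit the Kupffer and BMDM comparisons.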

Other observations

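The 3 hybrid libraries with NSG in their names held erythroid and platelet markers at 2740, 56.3 and 172 TPM in sum and monocyte markers at 455, 558 and 638 TPM. Over them Mmp12 was at 6.18, 2.77 and 19.4 TPM, and Mmp9 at 1.33, 8.08 and 1.31 TPM, so library 2 held the highest Mmp9 and the lowest Mmp12.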
